A study of Mus musculus with 3 samples.

Results

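Genes that mark blood vessel endothelium or the stroma were followed in mouse long-term hematopoietic stem cells (LT-HSCs): Kdr, Flt1, Tie1, Eng, Pecam1, Cdh5, Emcn, Egfl7, Sparc and Acta2. They were taken by gene name, with every probe of each gene, and make up 10 of 37325 genes and 21 of 56605 probes on the array. The list was chosen by values of these same arrays, the AtmsKO minus WT differences in view when it was drawn up, so the differences are given as a description and with no test. The question was whether they rose together after deletion of Atm, the kinase that answers DNA double-strand breaks.

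The data were 3 one-colour expression arrays, 1 for each genotype, from LT-HSCs sorted from the bone marrow of 11-week-old C57BL/6J mice as CD150+CD48-Flt3-CD34- LSK cells; the methods add a gate against CD41 and a lineage cocktail with TER-119, Mac-1, Gr-1, B220, CD4 and CD8. The WT array came from control mice, AtmsKO from mice with Atm deleted, and Atmp38dKO from mice with both Atm and p38α (Mapk14) deleted. The floxed alleles were removed by CAG-CreERT2, a tamoxifen-activated recombinase whose promoter is active in nearly all tissues, so the deletion was not limited to blood cells; the study's controls were Cre-negative floxed mice that also received tamoxifen. Tamoxifen was given at about 5 weeks of age, and cells were taken 4 weeks later in the series' description, which does not add up to the labelled 11 weeks. How many mice were pooled for an array is not stated. With 1 array for each genotype there was no replicate of any value: every difference below is between 2 arrays, and genotype cannot be told apart from array, sort or mouse.

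The targeted genes were read first. The Atm signal was 88.8, 16.3 and 49.0 intensity units at 1 probe and 87.0, 23.9 and 86.5 at the other, on WT, AtmsKO and Atmp38dKO in that order, so it was low on AtmsKO at both probes. After scaling, the log2 differences of AtmsKO from WT were -2.37 and -1.79, and those of Atmp38dKO were -1.07 and -0.22. The fall of Atm on the array labelled Atmp38dKO was thus partial at 1 probe and slight at the other. The Mapk14 signal was 469.2, 558.0 and 615.9 at 1 probe and 294.7, 260.4 and 345.3 at the other, with no fall on the array labelled Atmp38dKO; whether these probes lie in the deleted part of either gene was not tested, and the array keeps its label here only as a name. All 15 stem cell identity genes on a list that held Kit, Procr, Mecom and Hlf were well above background on every array. So were all 13 genes of a megakaryocyte and platelet list and all 11 of a granulocyte list. Of all genes, 75.5%, 71.3% and 79.7% passed on WT, AtmsKO and Atmp38dKO, so the count does not tell stem cells from other cells. Cd34 transcript was also read on all 3, at 1694, 1666 and 2185 units, although the sort was for cells without the CD34 protein.

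Endothelial cells line the vessels and are kept by vascular endothelial growth factor (VEGF), which acts through the receptor kinases encoded by Kdr (VEGFR2) and Flt1 (VEGFR1), and by angiopoietins, which act through TIE2 (Tek) with its partner Tie1. Blood stem cells arise in the embryo from hemogenic endothelium and go on using a part of that program, so Tie1, Eng, Emcn, Pecam1 and Egfl7 are known from stem cells as well as from vessels, whereas Cdh5 (VE-cadherin, the endothelial junction protein) is the more strict mark of the vessel wall in adults. Sparc, a matrix protein, and Acta2, smooth muscle actin, belong to stromal and mural cells.

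Each gene was read by 1 to 4 probes of 60 bases, and each probe was a single spot. The sequences below are given because the results turn on which stretch of a transcript was read; coordinates are mm9, the build of the array files, and all these probes match the minus strand. The Tie1, Pecam1, Acta2 and Sparc probes start at bases 3483, 2242, 335 and 980 of their transcripts, read protein-coding sequence as these genes are commonly described, and are given whole; no mm9 annotation was used here to check this. The coordinates of the Acta2 and Sparc probes span 3255 and 2658 bases of the genome, so these probes are split in the genome, as across a splice junction. For Kdr, whose probe starts at base 5377 of its transcript, the first 30 bases are shown. The last line is a stretch of the brightest Sparc probe, where capitals mark the run of 22 bases that also stands in a probe for St6galnac4.
Tie1, chr4:118144132-118144191: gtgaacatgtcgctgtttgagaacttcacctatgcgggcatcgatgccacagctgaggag
Pecam1, chr11:106540864-106540923: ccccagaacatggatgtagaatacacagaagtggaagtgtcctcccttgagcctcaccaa
Acta2, chr19:34322995-34326249: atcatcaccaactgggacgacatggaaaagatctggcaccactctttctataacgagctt
Sparc across a junction, chr11:55209449-55212106: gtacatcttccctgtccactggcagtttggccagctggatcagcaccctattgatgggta
Kdr, chr5:76329339-76329368: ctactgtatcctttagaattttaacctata
Sparc brightest, chr11:55222965-55222994: tacaGACATACATGCAGGCAAAACACttat

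Of the 10 genes, 8 were well above background on all 3 arrays at their brightest probe, Flt1 was so only on the array labelled Atmp38dKO, and Cdh5 on none. "Well above background" is the scanner software's flag for a spot brighter than its surroundings, and the dimmest probe that carried it read 5.33, 6.12 and 4.97 units on WT, AtmsKO and Atmp38dKO. By probe, 12 of 21 passed on every array and 7 on none. Array by array, 8, 8 and 9 of the 10 genes passed on WT, AtmsKO and Atmp38dKO, against 75.5%, 71.3% and 79.7% of all genes. Of all probes, 73.3%, 68.9% and 77.7% passed in the same order. The shares of all genes and probes passing on every array were not counted. The plot of probe signals shows a group of genes at steady levels, Kdr at 3 distinct levels, and Flt1 and Cdh5 near the lower end.

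**Figure D1:**
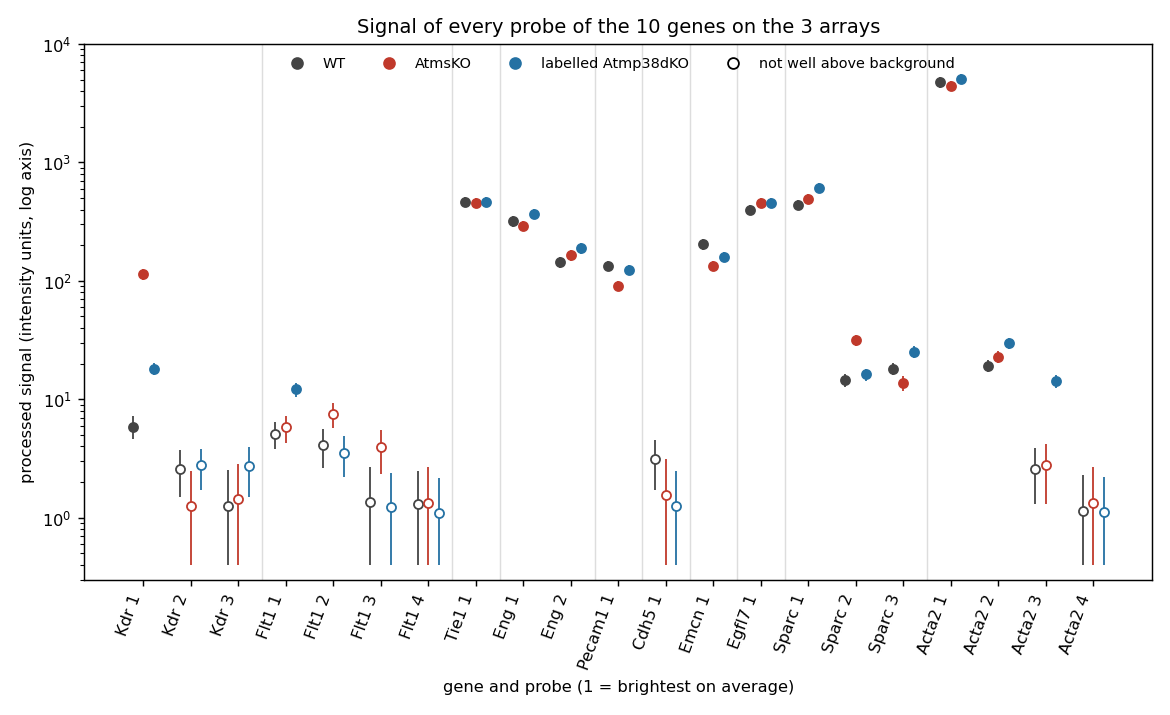
Processed signal (intensity units, log axis) of the 21 probes of the 10 genes on the WT, AtmsKO and Atmp38dKO arrays, 1 spot each. Bars are the scanner software's error of the spot, drawn down to 0.4 units at the lowest, and open circles are not well above background. Kdr probe 1 stands at 5.88, 114.0 and 18.1 units, while Tie1 lies between 455.9 and 467.4 units on all 3 arrays.

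Among the VEGF receptors, Kdr had the one large difference. Its brightest probe read 5.88 ± 1.29 units on WT, 114.0 ± 11.5 on AtmsKO and 18.1 ± 2.11 on Atmp38dKO, where ± is the scanner software's error of the spot and covers no biological spread. Kdr was thus highest on AtmsKO and lowest on WT, with the third array between. After each array was divided by its 75th percentile, Kdr was 20.5-fold higher on AtmsKO than on WT (log2 difference 4.36, spot error 0.35), 2.65-fold higher on Atmp38dKO than on WT (1.41, spot error 0.36), and 7.72-fold lower on Atmp38dKO than on AtmsKO (-2.95, spot error 0.22). The comparisons share arrays, so these values are not separate evidence of one another. With normexp background correction, which adds an offset of 50 units, the log2 differences from WT shrank to 1.53 on AtmsKO and 0.12 on Atmp38dKO, the latter no longer past 2-fold. The WT value lay just above the dimmest accepted signal of its array, so the size of the fold against WT rests on a spot near background. Among 25754 genes measured on both AtmsKO and WT, 1 had a larger rise than Kdr and 7 (0.0272%) rose at least 16-fold. Of the 1637 genes with a WT signal under 10 units, 13.2% were at least 2-fold and 0.916% at least 8-fold higher on AtmsKO.

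The rise stood at 1 of 3 Kdr probes. A probe for another Kdr transcript read 2.60, 1.25 and 2.77 units on WT, AtmsKO and Atmp38dKO, and a probe for the mRNA of the soluble receptor read 1.25, 1.43 and 2.74. Neither was well above background on any array. No run of 16 bases of any Kdr probe stood in a probe of another gene.

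Flt1, the receptor that binds VEGF tightly and signals weakly, was close to the detection limit. Its brightest probe read 5.12 ± 1.29 units on WT, 5.78 ± 1.47 on AtmsKO and 12.1 ± 1.63 on Atmp38dKO, well above background on the last array alone. Against the dimmest accepted signal, it was at least 1.95-fold higher on Atmp38dKO than on WT and at least 1.61-fold higher than on AtmsKO. With normexp background the log2 difference of Atmp38dKO from WT was 0.05, where it was 0.96 in the main setting. A probe for a transcript of the soluble Flt1 form read 4.13, 7.53 and 3.55 units, and another for that same transcript read 1.31, 1.33 and 1.09. The remaining probe read 1.36, 3.95 and 1.23 units. No Flt1 probe was well above background on AtmsKO, so no fold is given for that array against WT.

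Tie1, the orphan receptor that pairs with TIE2, had nearly the same signal on all 3 arrays. It read 467.4 ± 46.8 units on WT, 455.9 ± 45.6 on AtmsKO and 463.4 ± 46.4 on Atmp38dKO, and the normalized log2 difference of AtmsKO from WT was 0.04 with a spot error of 0.20. On the array labelled Atmp38dKO it was lower than on WT by -0.23, also close to the error of the spots. Eng (endoglin), a co-receptor for BMP9 and TGF-β, read 318.5, 291.9 and 366.8 units at its brighter probe and 143.8, 164.6 and 188.0 at the other. The AtmsKO minus WT difference was -0.05 at the first and 0.27 at the second, so the Eng probes took opposite signs with spot errors of 0.20 each.

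Emcn and Pecam1 were lower, not higher, on AtmsKO. Emcn (endomucin), a sialomucin of veins, capillaries and stem cells, read 203.5 ± 20.4 units on WT, 133.6 ± 13.4 on AtmsKO and 160.1 ± 16.1 on Atmp38dKO. Its log2 differences from WT were -0.53 and -0.56, about 1.44-fold and 1.47-fold lower, each with a spot error of 0.20. Pecam1 (CD31) read 133.9 ± 13.4, 91.1 ± 9.21 and 123.9 ± 12.4 units, and was lower than WT by -0.48 on AtmsKO and by -0.33 on Atmp38dKO. For both genes WT was the highest array, and neither difference reached 2-fold. Cdh5 read 3.13 ± 1.41, 1.55 ± 1.56 and 1.25 ± 1.25 units, not well above background anywhere.

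Egfl7, a secreted protein of endothelium that also hosts the microRNA miR-126, read 397.1 ± 39.7 units on WT, 455.0 ± 45.5 on AtmsKO and 455.9 ± 45.6 on Atmp38dKO. After scaling, AtmsKO was higher than WT by 0.27 and Atmp38dKO differed from it by -0.02, and the microRNA itself was not analysed here.

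The probes of Sparc did not give one answer. The brightest read 440.3, 490.2 and 607.2 units on WT, AtmsKO and Atmp38dKO, with an AtmsKO minus WT difference of 0.23. This is the probe whose bases recur elsewhere: it shares runs of 16 to 22 bases with probes of 5 other genes, and its level was not shown to be that of Sparc alone. The junction probe printed above, which shares no such run, read 14.6 ± 1.90 units on WT, 31.7 ± 3.47 on AtmsKO and 16.2 ± 1.97 on Atmp38dKO, 2.29-fold higher on AtmsKO than on WT (log2 difference 1.19, spot error 0.25). The remaining probe, nearer the end of the same transcript, read 18.1, 13.7 and 25.2 units and was lower on AtmsKO by -0.33. The latter pair of probes, of the same Sparc transcript, therefore moved in opposite directions on AtmsKO.

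Acta2 differed little at the bright end. Its brightest probe read 4752, 4438 and 5099 units on WT, AtmsKO and Atmp38dKO, with differences from WT of -0.02 and -0.11. The actin genes are much alike in their coding sequence, and whether this probe also reads other actins was not tested; the Actb probe, at 7090, 6653 and 7427 units, had differences of -0.01 and -0.15. A probe farther along the Acta2 transcript read 19.1, 22.9 and 29.8 units, higher than WT by 0.34 and 0.42. A probe farther still read 2.59 and 2.76 units, not well above background, on WT and AtmsKO and 14.2 on Atmp38dKO, where it was at least 2.30-fold higher than on WT, and the last Acta2 probe was not well above background on any array.

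Counted together, Kdr stood apart from the other genes on AtmsKO. Of the 8 with a value against WT, 4 were higher and 4 lower, 1 (Kdr) was at least 2-fold higher and none was at least 2-fold lower, where over all 28729 genes with a value 3.85% were at least 2-fold higher and 4.02% at least 2-fold lower. With the median over the probes of a gene that had a value in place of the brightest, Eng and Acta2 changed sign. Then 6 of the 8 were higher and 2 (Emcn and Pecam1) lower, with a median of 0.13. Kdr stayed at 4.36 there, because its other probes were not well above background and gave no value. At the brightest probe the median log2 difference of the 8 was 0.01, against 0.0046 over all genes, and without Kdr it was -0.02, with no gene past 2-fold. When each gene was read by its brightest probe that shares no run of 16 bases with another gene, Egfl7 had no such probe. Sparc then joined Kdr, and 2 of 7 genes were at least 2-fold higher. The share of all genes past 2-fold when read this way was not counted. On the array labelled Atmp38dKO, 3 of 9 were higher than WT and 6 lower, with a median of -0.02. The split was 5 and 4 over all probes with a value, and also with normexp background, where no gene passed 2-fold. At the brightest probe Kdr alone was past 2-fold (4.00% of all genes were at least 2-fold higher there and 4.46% at least 2-fold lower). Between Atmp38dKO and AtmsKO, 4 of 9 were higher and 5 lower with a median of -0.03, and Kdr alone was at least 2-fold lower, as were 3.79% of all genes, while 3.87% were at least 2-fold higher.

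**Figure D2:**
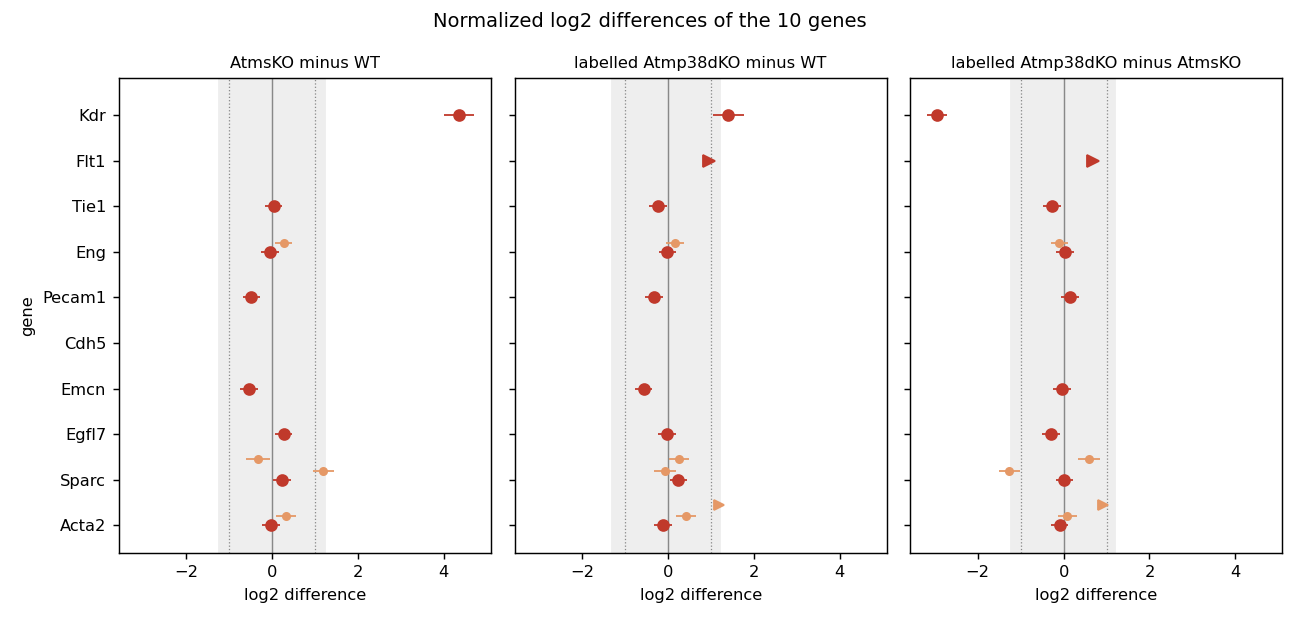
Normalized log2 differences of the 10 genes in the 3 comparisons, with the scanner software's spot error as bars; large dark points are the brightest probe, small pale points the other measured probes, triangles are lower bounds, the grey band holds the middle 95% of all genes and dotted lines mark 2-fold. Kdr lies at 4.36, 1.41 and -2.95, outside the band in every panel, and Cdh5 has no value in any.

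On AtmsKO against WT, the rest of the VEGF, TIE and endoglin pathway did not follow Kdr. On a list of 24 such genes on the array, with Kdr, Flt1, Tie1 and Eng among them, 20 had a value on AtmsKO against WT. Of these, 8 were higher and 12 lower, Kdr was the only one past 2-fold, and the median was -0.06. Over all genes, 3.85% were at least 2-fold higher and 4.02% at least 2-fold lower. Among ligands, Vegfa read 640.8, 881.4 and 494.0 units on WT, AtmsKO and Atmp38dKO (differences from WT of 0.54 and -0.59). It was highest on AtmsKO at 3 of its 4 probes and lowest on Atmp38dKO at all 4 after scaling. Between Atmp38dKO and AtmsKO, 10 of 21 list genes were higher and 11 lower, with a median of -0.01. There Kdr and Vegfa were at least 2-fold lower and none at least 2-fold higher, where 3.79% and 3.87% of all genes were. The Vegfa difference was -1.13 at its brightest probe and -1.80, -1.01 and -0.67 at the others. Pgf, a ligand of Flt1, read 82.6, 51.7 and 72.3 units and had the most negative difference of the list on AtmsKO at -0.60. Angpt2, which opposes angiopoietin 1 at TIE2, read 218.9, 280.1 and 522.7 units, higher by 0.43 on AtmsKO and 1.04 on Atmp38dKO. Angpt1 itself, a ligand that stem cells make, read 3159, 2868 and 3389 units with differences of -0.06 and -0.11.

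Among receptors, Tek (TIE2) read 45.4, 64.2 and 63.2 units, higher by 0.58 and 0.26, next to the flat Tie1. Flt4 (VEGFR3), of lymphatic endothelium, was not well above background on any array. Nrp1, a VEGF co-receptor, read 76.5, 68.5 and 97.8 units. Nrp2 and Bmpr2 were among the 3 brightest genes of the list, but the brightest Nrp2 probe shares runs with probes of 117 other genes and that of Bmpr2 with 6, so their levels were not taken as theirs. Id1 and Id3, targets of BMP signals that pass through Eng, read 338.6, 249.4 and 153.5 units and 149.6, 114.7 and 181.6 units. Both were lower on AtmsKO, by -0.36 and -0.31, and Id1 alone was lower on Atmp38dKO, by -1.36.

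A wider list of 38 endothelial genes was set beside the 10 to see whether the vessel program as such was higher on AtmsKO. Of 30 with a value, 18 were higher and 12 lower, and the median was 0.08. Over all genes, 3.85% were at least 2-fold higher and 4.02% at least 2-fold lower. Of the 30, 1 was at least 2-fold higher and none at least 2-fold lower. The one past 2-fold was Podxl, a sialomucin of vessels and podocytes, which read 3.70, 18.3 and 7.16 units and was at least 3.63-fold higher on AtmsKO than on WT, while its other probe read 6.31 on WT and was not well above background on AtmsKO at 2.80. Next came Sox18, an endothelial transcription factor, at 0.85 as a bound (5.39, 9.19 and 5.25 units, well above background on AtmsKO alone), Cldn5, a tight junction protein, at 0.72 (19.6, 30.5 and 22.7 units), Tek at 0.58 and Robo4 at 0.55 (269.8, 375.5 and 293.3 units). The largest falls were Clec14a at -0.30, S1pr1 at -0.24 and Erg at -0.22. Like Cdh5, the 6 list genes Flt4, Stab1, Lyve1, Ptprb, Fabp4 and Sele were not well above background on any array. The brightest were Gata2, Lmo2 and Adgrl4, of which the first pair are transcription factors of blood stem cells as well, and their differences on AtmsKO lay between -0.13 and 0.10.

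On Atmp38dKO against WT, 15 of 31 of these endothelial genes were higher and 16 lower, 1 (Angpt2) at least 2-fold higher and 2 at least 2-fold lower. Over all genes, 4.00% were at least 2-fold higher there and 4.46% at least 2-fold lower. S1pr1, a receptor for sphingosine 1-phosphate, read 115.3, 92.4 and 48.2 units and was lower there by -1.47. Plvap, of fenestrated vessels, read 12.5 units on WT and AtmsKO and 3.35, not well above background, on Atmp38dKO, at least 2.92-fold lower than WT. Between Atmp38dKO and AtmsKO, 9 of 29 endothelial genes were higher and 20 lower, with a median of -0.21, against 0.01 over all genes. None was at least 2-fold higher and 5 were at least 2-fold lower, where 3.87% and 3.79% of all genes were. The 5 were Podxl, S1pr1, Ets1, and Plvap and Sox18 as bounds. Ets1 differed by 0.05 at its brightest unshared probe.

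Stromal and mural genes other than Sparc and Acta2 were also mixed. Of 45, 35 had a value on AtmsKO against WT, 20 higher and 15 lower with a median of 0.05. Of these, 1 was at least 2-fold higher and 2 at least 2-fold lower, where 3.85% and 4.02% of all genes were. Pdgfrb, the pericyte receptor for PDGF-B, read 18.8 ± 2.24, 76.2 ± 7.74 and 25.1 ± 2.77 units. It was 4.29-fold higher on AtmsKO than on WT (log2 difference 2.10) and close to WT on Atmp38dKO (0.20), so that Pdgfrb, like Kdr, was highest on AtmsKO. Des, a muscle intermediate filament, was higher by 0.99 at 6.55 units on WT and 12.4 on AtmsKO, and Pdgfra by 0.63. Fn1 (fibronectin) was at least 3.99-fold lower on AtmsKO at its brightest probe, at 27.2, 6.45 and 25.7 units, and at least 4.85-fold higher at another, at 5.4, 24.8 and 22.5 units, so its probes disagree in direction. Igfbp7 read 22.8, 10.7 and 28.0 units and was 2.03-fold lower on AtmsKO. Nes was lower by -0.64. Sp7 was lower by -0.91 at its brightest probe, but had differences of -0.01 and 0.36 at the other 2. Col1a1, Col1a2 and Cxcl12, products of marrow stroma, had differences of -0.21, -0.47 and 0.30, and Rgs5, Lum, Foxc1 and Ebf3 were not well above background on any array. The brightest probes were those of Mcam, whose only probe shares runs with 118 other genes, Tagln at 443.1, 382.1 and 492.1 units, and Actg2 at 340.2, 327.2 and 372.2 units.

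**Figure D3:**
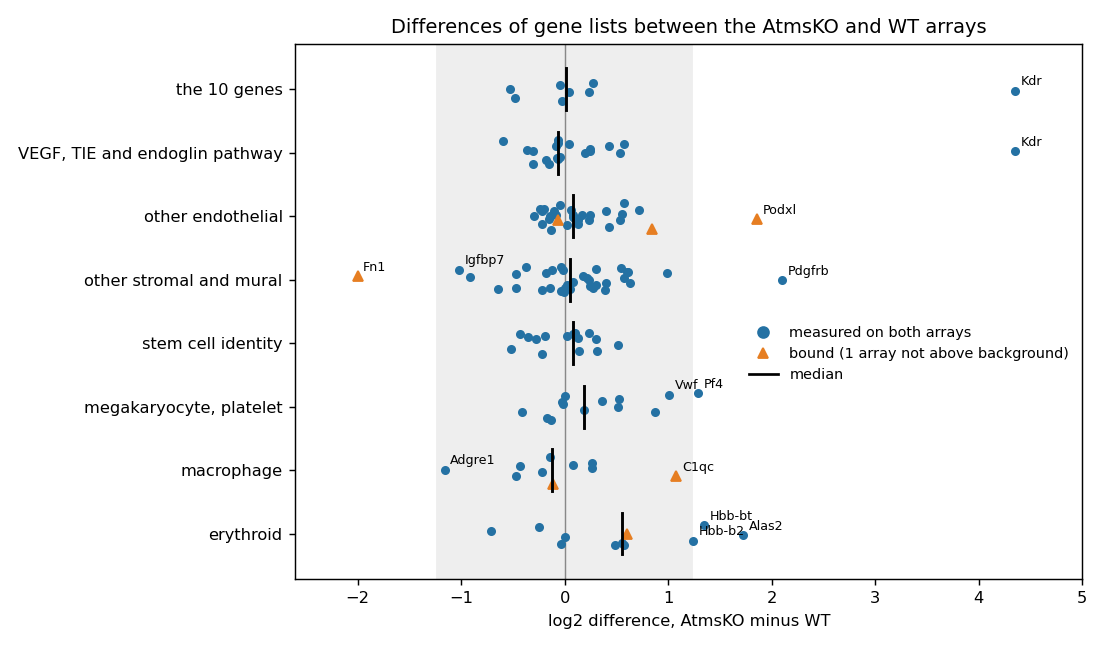
AtmsKO minus WT log2 difference of each gene with a value on 8 lists, 1 point a gene at its brightest probe; black bars are medians, triangles bounds, the grey band the middle 95% of all genes, and genes at or past 2-fold are named. Kdr stands alone at 4.36 on the top row (it recurs in the pathway row), and the medians of the endothelial and stromal rows lie at 0.08 and 0.05.

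Markers of other marrow cells were read on the same arrays, although the gate against CD41 would remove megakaryocytes and platelets, and TER-119 erythroid cells. Each list was counted and its level summed over probes that share no run with another gene, in units of the array's 75th percentile. The 9 of the 10 genes with such a probe summed to 58.17, 57.82 and 53.14 on WT, AtmsKO and Atmp38dKO, most of it the bright Acta2 probe. The other endothelial genes summed to 159.0, 165.0 and 148.4, and the other stromal genes to 25.7, 25.3 and 23.6. Gata2, also on the stem cell identity list, made up 60.87, 65.39 and 56.27 of the endothelial sum. Without Gata2 that sum was 98.15, 99.58 and 92.15. The megakaryocyte and platelet list summed to 24.89, 42.20 and 29.97, with 7 of 11 genes higher on AtmsKO than on WT. Pf4 (1020, 2366 and 1536 units) and Vwf (102.2, 195.2 and 187.8 units) were past 2-fold. At the brightest probe, 3.85% of all genes were at least 2-fold higher on AtmsKO, and the share over unshared probes was not counted. Pf4 alone rose from 10.04 to 24.60 on this scale, and without it the list summed to 14.84, 17.60 and 16.94. Tubb1 was lower by -0.17, and Itga2b, which encodes CD41, by -0.41 at a probe with a shared run. Vwf is also an endothelial gene, and its 2 dimmer probes had differences of 0.31 and -0.48 where the brightest had 1.01. Erythroid genes summed to 7.26, 9.49 and 10.7, with 7 of 10 higher on AtmsKO, and Hba-a1 and Epor lower by -0.71 and -0.24. Alas2, Hbb-bt and Hbb-b2 were past 2-fold, beside the same 3.85% of all genes. Without Hbb-bt they summed to 5.91, 6.05 and 6.80. The part of these cells in the Kdr difference was not tested, and in sorted pools a larger number of cells of a type and more RNA per cell cannot be told apart.

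The other lineages gave smaller or opposite differences. Macrophage genes summed to 28.99, 25.55 and 24.77 on WT, AtmsKO and Atmp38dKO, and 4 of 10 were higher on AtmsKO, from Adgre1 at -1.16 to C1qc at 1.08 as a bound. Granulocyte genes summed to 29.7, 34.5 and 34.4, with 6 of 8 higher, led by Elane at 0.95. B cell genes summed to 6.57, 6.23 and 6.39, with 3 of 9 higher. T and NK cell genes summed to 8.17, 8.39 and 9.89, with 5 of 8 higher and none past 2-fold. Of the stem cell identity genes, 9 of 15 were higher on AtmsKO and 6 lower, from Slamf1 at -0.52 to Ctnnal1 at 0.51. On the array labelled Atmp38dKO 13 of 15 were lower than on WT, Fgd5 (-1.72) and Hoxb5 (-1.64) past 2-fold. There, 4.46% of all genes were at least 2-fold lower. Of 8 genes with a value whose protein the sort gates against, 5 were higher and 3 lower on AtmsKO than on WT. On Atmp38dKO 4 were higher and 4 lower. Over unshared probes 4 of 6 were higher on AtmsKO and 5 of 6 on Atmp38dKO. Cd48 read 17.2, 21.2 and 34.0 units, Flt3 79.4, 70.3 and 100.8, and Cd4 483.8, 447.7 and 607.8. Cd8a was at least 1.77-fold lower on Atmp38dKO than on WT.

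Over the 13368 named genes that carried the flag on every one of the 3 arrays, the 5 whose centred log2 profile lay nearest to that of Kdr over the 3 arrays were Tmem37, Speer1, Nrxn3, Myh7b and Ralyl, at Euclidean distances of 0.31 to 0.94 log2 units. Tmem37 read 8.80, 135.5 and 28.6 units, 16.2-fold higher on AtmsKO than on WT, and was the single gene whose value on Atmp38dKO also lay past 2-fold above WT (1.49). The other 4 were higher on AtmsKO by 3.04 to 4.10 and on Atmp38dKO by 0.34 to 0.56. Nrxn3, Ralyl and Myh7b have 6, 4 and 2 probes, of which only the brightest was read here. The probes of Tmem37 and Speer1 share runs of 16 bases with probes of 1 and 3 other genes. None of the 5 was on any of the endothelial or stromal lists, and likeness over 3 arrays is a description of these arrays.

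**Figure D4:**
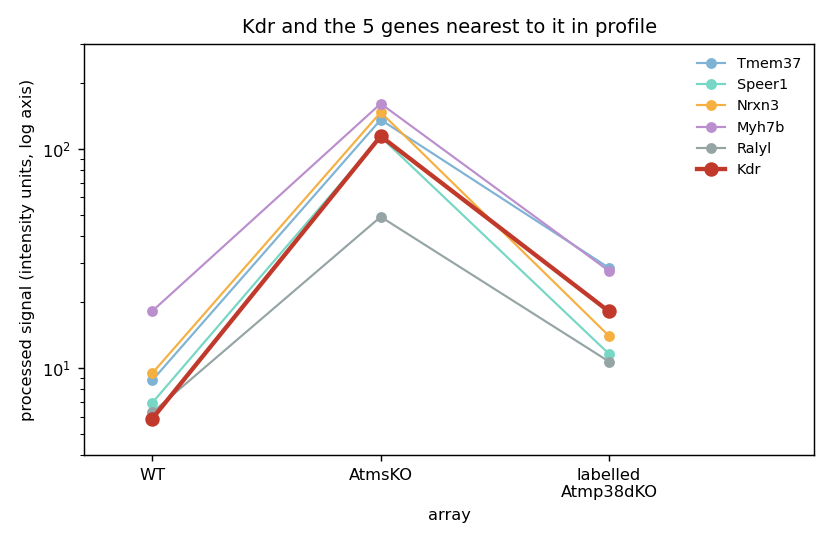
Processed signal (intensity units, log axis) of Kdr and the 5 genes with the nearest profile on the WT, AtmsKO and Atmp38dKO arrays, 1 value each at the brightest probe. All 6 peak on AtmsKO, between 48.9 and 160.4 units, and start from 5.88 to 18.2 units on WT. The 5 were chosen for likeness to Kdr, so the shared peak follows from the choice.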

How the data were processed

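RNA of sorted LT-HSCs was labelled with Cy3 and hybridised to Agilent mouse arrays, 1 for each genotype, and scanned and extracted with Agilent Feature Extraction 11.5.1.1, on probes placed on mm9 by the file headers. The deposited files hold each spot's intensity after the authors' scanner software subtracted background and detrended it. The series also has the authors' log2 values, which equal log2 of the processed signal minus 1 constant for each array (within 0.02 for at least 99.8% of probes; medians -2.18, -2.22 and -2.17); what sets that constant is not stated.

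Here log2 of the processed signal minus log2 of each array's 75th percentile (101.5, 96.2 and 117.8 units on WT, AtmsKO and Atmp38dKO) was compared after leaving out 57, 75 and 83 outlier spots. A gene was read by its brightest probe on average. A probe well above background on 1 array of a pair was given a bound. It was set against the other array's dimmest accepted signal, or the probe's own value there if higher. Where the array with the flag did not then come out higher, no value was given. Genes were named by RefSeq accession for 32994 of 56605 probes. Probes printed about 10 times had a median log2 SD of 0.053 within each array, which is technical. The number of arrays limits the precision, and no test was run.

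The text names every probe of the 10 genes, Atm and Mapk14, and of each list the 3 brightest, the 3 most raised and the 3 most lowered genes on AtmsKO, abridged for blood lineages. Genes and lists were chosen with earlier results of these data known. The code was tested on simulated arrays in Python 3.11.15; limma 3.58.1 in R 4.3.3 gave the normexp and quantile alternatives.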

Additional observations from a re-analysis of the deposited data

How the results depend on the processing

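No paired analysis was possible because each genotype has 1 array, and no sample could be left out. The settings tried were median centring, quantile scaling, normexp background and the deposited log2 values. Others were no floor, a filter on both arrays, the median of all probes with a value, and unshared probes. The last, like leaving out Kdr, was added after the data were seen. The deposited values are log2 of the same processed signal minus 1 constant for each array. They gave nearly the main differences (for Kdr on AtmsKO against WT, 4.360 beside 4.355). They are thus no separate check, though the counts below include them. Across all settings, the Kdr difference of AtmsKO from WT lay between 1.53 (normexp, offset 50) and 4.38. That of Atmp38dKO from WT lay between 0.12 (normexp) and 1.41, and that of Atmp38dKO from AtmsKO between -2.99 and -1.41. Kdr kept its sign in each. It had a value at 1 probe only, well above background on every array, so the floor, filter and probe settings could not change it. The number of genes at least 2-fold higher on AtmsKO than on WT (1) was 2 with unshared probes and 0 without Kdr. On Atmp38dKO against WT (1 higher, 0 lower) it was 2 at 1.5-fold, 0 at 4-fold, 0 with normexp, and 2 higher with 1 lower without a floor or filter; against AtmsKO (0 higher, 1 lower) it was 1 higher at 1.5-fold and 2 lower with unshared probes. The median on AtmsKO against WT (0.01) was 0.478 as a mean and 0.134 over all probes of a gene with a value. On Atmp38dKO against WT (-0.02) it was 0.152 as a mean, 0.080 over all probes with a value and -0.091 with unshared probes. Against AtmsKO (-0.03) it was -0.304 as a mean and 0.037 with quantile scaling. The means carry Kdr and unshared probes leave out Egfl7; the cause of the other shifts was not tested. Of 90 recomputed counts and medians 74 stayed within 1.5 times the count or within the technical SD. Signal over background limits Kdr on WT, Flt1 and Cdh5.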
